A study of Danio rerio with 36 samples.

Results

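The comparison set sperm of 3 G4+ males against sperm of 3 G2 wild-type males of the zebrafish *dnmt1* study, and asked which parts of the genome had not returned to the wild-type methylation level 2 generations after a *dnmt1* mutant ancestor. The unit was a window of 1 kb on a fixed grid. A window was a member when at least 5 CpG dinucleotides in it had a methylation ratio in all 6 males, irrespective of that ratio, and 669711 of the 1338131 windows with a listed CpG met this rule. The G2 males were *dnmt1*+/+ offspring of heterozygous carriers. The G4+ males were genotypically wild type for *dnmt1* as well. Each descended from a homozygous *dnmt1* m/m G2 male through heterozygous G3 fish that had been crossed to wild-type fish. When crossed to wild-type fish, G4+ males gave offspring with normal larval T cell development, and are called non-transmitting for this reason, whereas their G4* counterparts, called transmitting, gave offspring in which it was impaired. All sperm samples came from fish of mixed background, descended from a single mutant line. The study set up 2 separate pedigrees by crossing the G1 carrier to wild-type fish. Which of them each male came from was not given in the sources used here. GEO's labels call the G2 sperm samples generation 1, and G2 is the study's name. The G4 columns are headed Ctrl and Pb rather than by group, and were read as G4+ and G4* from the heads of the study's supplementary lists, so that every G4 value rests on this reading. The age of the males was not given in the sources used here. The generation, the descent from a mutant male and any sequencing run coincide with the comparison of G2 and G4+, so that they cannot be told apart.

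DNMT1 is the maintenance methyltransferase. It copies the methylation of a CpG to the daughter strand after replication, and without full activity methylation is diluted as cells divide. Zebrafish sperm is highly methylated, and in this species the maternal genome is reset to the paternal pattern in the early embryo, while the paternal pattern is largely kept. A change in the sperm methylome may thus be seen again in the next generation. The allele studied here is a viable hypomorph that carries a missense change in the catalytic domain.

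Methylation was read by whole genome bisulfite sequencing, and a methylation level is the percent of reads in which a cytosine was methylated. Between 11958432 and 15741946 CpGs had a value in a G2 wild-type male, and between 14141525 and 15873738 in a G4+ male. The number of reads behind a ratio is unknown, because ratios without counts were used, and no counting interval can be given. The samples carried the high methylation of sperm. The study also sequenced whole bodies of G2 larvae, either wild type or *dnmt1* m/m. Tissue and age differ together between these larvae and the sperm of adult males. Over all tested windows the median level was 97.5% in G2 wild-type sperm and 97.1% in G4+ sperm, against 87.4% in wild-type whole body. At windows of 22 of 30 germline genes, which include the germ plasm helicase gene *ddx4*, these medians were 97.4%, 97.1% and 86.7%, and at windows of 14 of 15 somatic marker genes they were 97.5%, 96.9% and 83.4%. These genes mark cell types by their expression, which was not measured here, so that the purity of the sperm was not tested.

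Genome-wide, the methylation level of G4+ sperm lay within 1 percentage point of the wild-type level, and was lower in each of the 3 males. Over the 8003727 CpGs with a value in all 6 males, the mean level was 91.73%, 91.68% and 91.65% in G2 wild-type males 1 to 3 (mean 91.69%, SD 0.0376, n = 3). It was 91.18%, 91.34% and 91.20% in G4+ males 1 to 3 (mean 91.24%, SD 0.0855, n = 3). The groups did not overlap and differed by -0.448 percentage points, with a two-sided exact permutation p of 0.1, which is the smallest that 3 against 3 allows. The median CpG was at 100% in every male. The mean level over CpGs valued in all 12 sperm samples was 66.8% (SD 5.95, n = 3) in G2 *dnmt1* m/m sperm and 91.8% (SD 0.0307, n = 3) in G4* sperm, and over these same CpGs it was 92.3% (SD 0.0400) in G2 wild-type and 91.9% (SD 0.0868) in G4+ sperm.

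CpGs of intermediate level were more frequent in G4+ sperm, but highly methylated windows were slightly lower as well. The median difference was -0.354 points over 626036 windows at 80% or more in G2 wild-type sperm. Over 18771 windows between 20% and 80% it was 0.642 points. CpGs between 20% and 80% made up 2.38%, 2.32% and 2.25% of the total in the G2 wild-type males. They made up 3.21%, 2.86% and 3.00% in the G4+ males (exact permutation p = 0.1), so that every G4+ male had more of them than every G2 wild-type male. CpGs under 20% were slightly fewer in G4+ sperm, at 5.09% (SD 0.0155, n = 3) against 5.21% (SD 0.0314, n = 3), also without overlap. The share of fully methylated CpGs was 64.0%, 61.1% and 57.3% in G2 wild-type males and 57.0%, 54.4% and 55.0% in G4+ males. In either group the male with most CpGs valued had the lowest share, and the part of coverage in this measure was not tested. G4+ males also differed more from each other. Their levels spanned 20 points or more in 1.69% of windows, as compared to 0.725% among G2 wild-type males, 1.71% among G4* males and 19.2% among G2 *dnmt1* m/m males.

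At the level of windows, 626 of 669711 (0.0935%) differed between G4+ and G2 wild-type sperm by at least 20 points at a false discovery rate (FDR) under 5% (limma on logit-transformed window means, Benjamini-Hochberg adjusted over all windows). Of these, 368 were lower in G4+ sperm (0.0549% of windows tested) and 258 were higher (0.0385%). The levels of the 2 groups did not overlap in any of the 626. Such separation was common by itself, since it was seen in 14.3% of all windows, 9.72% with G4+ lower and 4.56% with G4+ higher. The gap between the nearest males of the 2 groups was 20 points or more in 308 of the 368 and in 219 of the 258, as compared to 556 and 523 of all windows tested. The unadjusted p was under 0.05 in 60791 windows. A mean difference of 20 points or more, without regard to the test, was found in 2589 windows with G4+ lower and in 2146 with G4+ higher.

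The number of windows called depended on having all 6 males. It fell to 6 lower and 14 higher windows without G2 wild-type male 1, to 12 and 34 without male 2, and to 0 and 5 without male 3. Without G4+ males 1, 2 and 3 it was 18 and 28, 147 and 128, and 232 and 148. Under each omission, 611 to 623 of the 626 still differed by 20 points or more, the minimum at which they had been picked with all 6 males. Their direction could not change with 1 male left out, since the groups overlapped in none of them. In data simulated from these males, with 200 windows lowered, the test recovered 0 of 200 at 30 points and 127 of 200 at 60 points. A window that was not called can therefore not be taken as unchanged. Only 200 windows differed in the simulated data, whereas 9.08% of the real windows had an unadjusted limma p under 0.05. In the real data, losses as small as -20.1 points were called, so that the shares recovered do not give the sensitivity there. Among the 31 windows named by rule, 3 to 18 were called with 1 male left out.

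**Figure D1:**
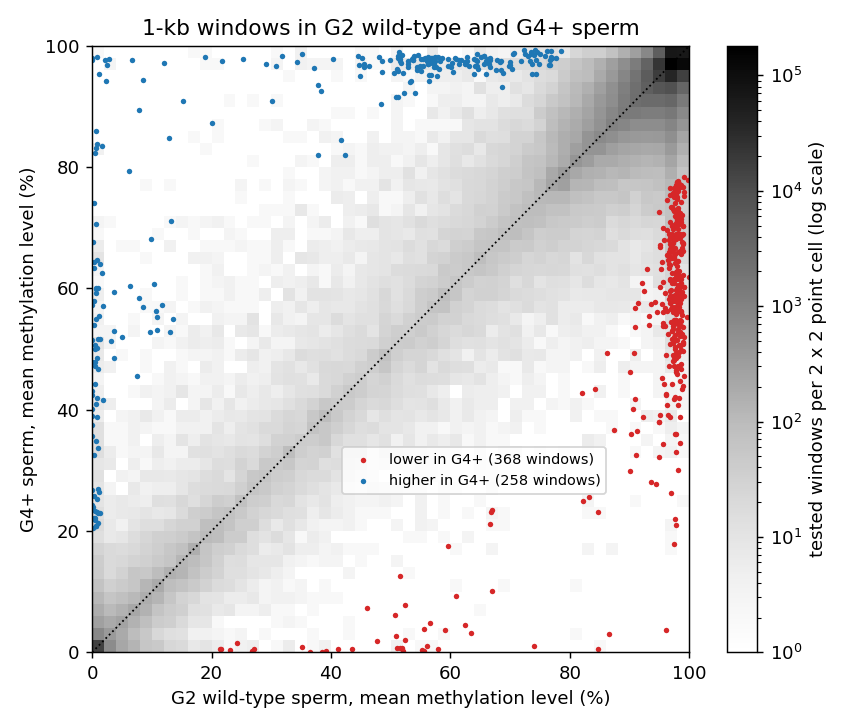
Mean methylation level of 1-kb windows in G2 wild-type sperm (horizontal axis, percent) and G4+ sperm (vertical axis, percent), each the mean of 3 males; grey shading gives the number of windows on a log scale, and coloured points are the called windows. The 368 windows lower in G4+ lie mostly at 90% or more in G2 wild-type sperm (320 of 368), and the 258 higher windows form a band near 0% in G2 wild-type sperm and another near the top.

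The windows lower in G4+ sperm were in most cases fully methylated in wild-type sperm and intermediate in G4+ sperm. In G2 wild-type sperm, 320 of the 368 were at 90% or more. In G4+ sperm, 140 were between 40% and 60%, 158 between 60% and 80%, and 40 under 20%. The median level over these windows was 97.6%, 97.4% and 97.3% in G2 wild-type males 1 to 3, and 58.3%, 58.3% and 57.9% in G4+ males 1 to 3. All 3 G4+ males lay between 35% and 65% in 107 of them (29.1%), which was the case in 0.578% of all windows tested. The lower windows had been picked for a G4+ level at least 20 points below that of wild-type sperm. This contrast therefore follows in part from the choice of windows. The G4+ males differed from each other by 20 points or more in 72 of the 368 windows, and the G2 wild-type males did so in 11.

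The windows higher in G4+ sperm fell into 2 kinds. In 101 of the 258, the G2 wild-type level was under 20%, with a median of 0.872% over windows, and the G4+ level had a median of 53.2%. In 144, it was between 40% and 80% in G2 wild-type sperm, with a median of 59.9%, and the G4+ median was 97.5%. The remaining 13 lay between 20% and 40% in G2 wild-type sperm. Windows under 20% in G2 wild-type sperm that reached 80% or more in G4+ sperm numbered 20. Thus intermediate levels were found in G4+ sperm at windows that were either full or empty in wild-type sperm, and also in wild-type sperm at windows that were full in G4+ sperm.

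Relative to the number tested, called windows were most frequent where wild-type sperm was itself intermediate. Among 18771 windows between 20% and 80% in G2 wild-type sperm, 0.208% were lower and 0.836% higher. Among 626036 windows at 80% or more, 0.0526% were lower, and among 24904 windows under 20%, 0.406% were higher. A window can only move up from the lowest class and down from the highest.

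The 12 windows with the largest loss lay on 10 chromosomes, and G4+ sperm was between 0.581% and 33.0% at them. Gene names are given where an interval of the study within 5 kb of the window lay within 5 kb of a gene. The intervals were the study's differentially methylated regions, so that a gene nearest to none of them was tied to no window. Coordinates refer to the danRer10 (GRCz10) assembly. Exons, introns and untranslated regions were not analysed here.

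At chr15:43780001-43781000, whose nearest annotated interval lay 3033 bp away within the tyrosinase gene *tyr* (melanin synthesis), G2 wild-type males 1 to 3 were at 95.6%, 94.0% and 99.0%, and G4+ males 1 to 3 at 1.89%, 0.714% and 8.33%. The level had been full in every G2 wild-type male and close to absent in every G4+ male, a difference of -92.5 points (log-odds difference -6.43, SE 0.52, adjusted p = 0.0112, limma). This level rests on 5 of the 20 listed CpGs of the window, the minimum number that the rule allowed. At chr13:27493001-27494000, with the nearest interval 896 bp away beside the potassium channel gene *kcnq5a*, the G2 wild-type males were at 66.8%, 94.6% and 93.0% and the G4+ males at 0.452%, 1.29% and 0% (adjusted p = 0.0134). G2 wild-type male 1 was the low one of its group here, and the G2 *dnmt1* m/m mean was 19.9%. At chr17:51672001-51673000, whose nearest interval was 2606 bp away and tied to *odc1*, which encodes the ornithine decarboxylase of polyamine synthesis, G2 wild-type males had 82.0%, 94.7% and 82.8%, and G4+ males 7.06%, 0% and 2.11% (adjusted p = 0.0235). The *odc1* window rests on 5 of 30 listed CpGs, and that of *kcnq5a* on 13 of 23.

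Most of the other losses were partial, and the G4+ males were less alike at them. At chr11:41777001-41778000, within *svbp*, whose product binds the tubulin-modifying vasohibins in mammals, G2 wild-type males had 98.3%, 94.5% and 99.7%, and G4+ males 20.9%, 11.5% and 21.0% (adjusted p = 0.0136). At chr10:43912001-43913000, within the centrin gene *cetn3*, all G2 wild-type males were at 97.9% or more and G4+ males at 17.1%, 49.4% and 23.8% (adjusted p = 0.0136). G4+ male 2 thus lay well above the other two there. At chr19:42249001-42250000, tied to *trioa* (a guanine nucleotide exchange factor gene), the G4+ males had 11.8%, 6.31% and 45.0%, with G2 wild-type males at 96.4% or more (adjusted p = 0.0343). Here, and in the window of chromosome 8 in the same set, G4+ male 3 was the highest. Among the 12 losses, the SE of the log-odds difference was smallest at chr16:38966001-38967000, which was not tied to a gene. There, G2 wild-type males had 98.9%, 97.8% and 96.8% and G4+ males 37.3%, 29.4% and 32.2% (difference -64.8 points, log-odds difference -4.17, SE 0.26, adjusted p = 0.00949).

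In 2 of the 12, the G2 wild-type males themselves spanned 20 points or more. These were the *kcnq5a* window above and a window on chromosome 25. At chr25:4569001-4570000, within *si:ch73-365i12.5*, G2 wild-type males were at 71.1%, 96.5% and 54.2%, and G4+ males at 1.62%, 1.34% and 0% (adjusted p = 0.0487). Its G4* level was 0.906% and its G2 *dnmt1* m/m level 17.7%. The remaining windows of this set were tied to *fgf11a*, a fibroblast growth factor homologous factor, and to *CABZ01088311.1*, or lay on chromosomes 8 and 11 without a gene. Around the 12 windows, CpGs that were on average at least 20 points lower over 5 neighbouring CpGs extended over 1133 to 3407 bp (median 1881 bp), with 8 to 22 CpGs.

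The 12 windows with the largest gain lay on 5 chromosomes, and 6 of them were on chromosome 15. At chr15:44846001-44847000, no read was methylated at any of the 7 CpGs in the 3 G2 wild-type males, whereas G4+ males 1 to 3 had 97.6%, 98.3% and 98.1% (log-odds difference 8.12, SE 0.22, adjusted p = 0.000327, the smallest of the named windows). The G4* level was 98.9%, and the G2 *dnmt1* m/m males were at 42.9%, 53.7% and 0%. At chr15:41922001-41923000, G2 wild-type males had 0%, 0% and 2.22%, and G4+ males 97.4%, 98.0% and 99.3% (adjusted p = 0.00600). The gain was as complete in every G4+ male at both windows. Neither was tied to a gene.

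Further gains on this chromosome were at genes. Within *slc8a2b*, a sodium/calcium exchanger gene, chr15:42842001-42843000 was at 0.417%, 0.444% and 7.49% in G2 wild-type males and at 96.9%, 97.2% and 99.2% in G4+ males (adjusted p = 0.0112). At chr15:41808001-41809000, 1696 bp from the mitochondrial nucleotide carrier gene *slc25a36b* by the interval annotation, the levels were 0%, 0.758% and 6.09% against 98.1%, 93.7% and 90.8% (adjusted p = 0.0129). In both cases G2 wild-type male 3 was the highest of its group. Within *flj13639*, chr15:43315001-43316000 was at 7.41%, 10.2% and 2.20% against 98.5%, 97.1% and 97.5% (adjusted p = 0.00949). The sixth, at chr15:42391001-42392000, had its nearest interval 757 bp away within *scaf4b*.

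Outside chromosome 15, the largest gain tied to a gene was within *myom3*, a myomesin gene of the sarcomere. At chr16:52545001-52546000, G2 wild-type males had 1.18%, 5.27% and 0%, and G4+ males 99.2%, 98.2% and 95.6% (adjusted p = 0.0105). Unlike most windows empty in wild-type sperm, this one was at 81.3% in G2 *dnmt1* m/m sperm and at 68.2% in wild-type whole body. At chr19:43953001-43954000, within *gpr186* (a G protein-coupled receptor gene), G2 wild-type males had 0.321%, 1.143% and 0.260% (mean 0.575%, SD 0.493, n = 3) and G4+ males 98.3%, 98.0% and 61.4% (adjusted p = 0.0334). In this window G4+ male 3 was lower, and the G4* males had 0.951%, 66.2% and 0.379%, so that single males of either G4 group differed. The CpGs raised by 20 points or more around the 12 windows extended over 1775 to 6572 bp (median 2687 bp), with 8 to 31 CpGs.

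**Figure D2:**
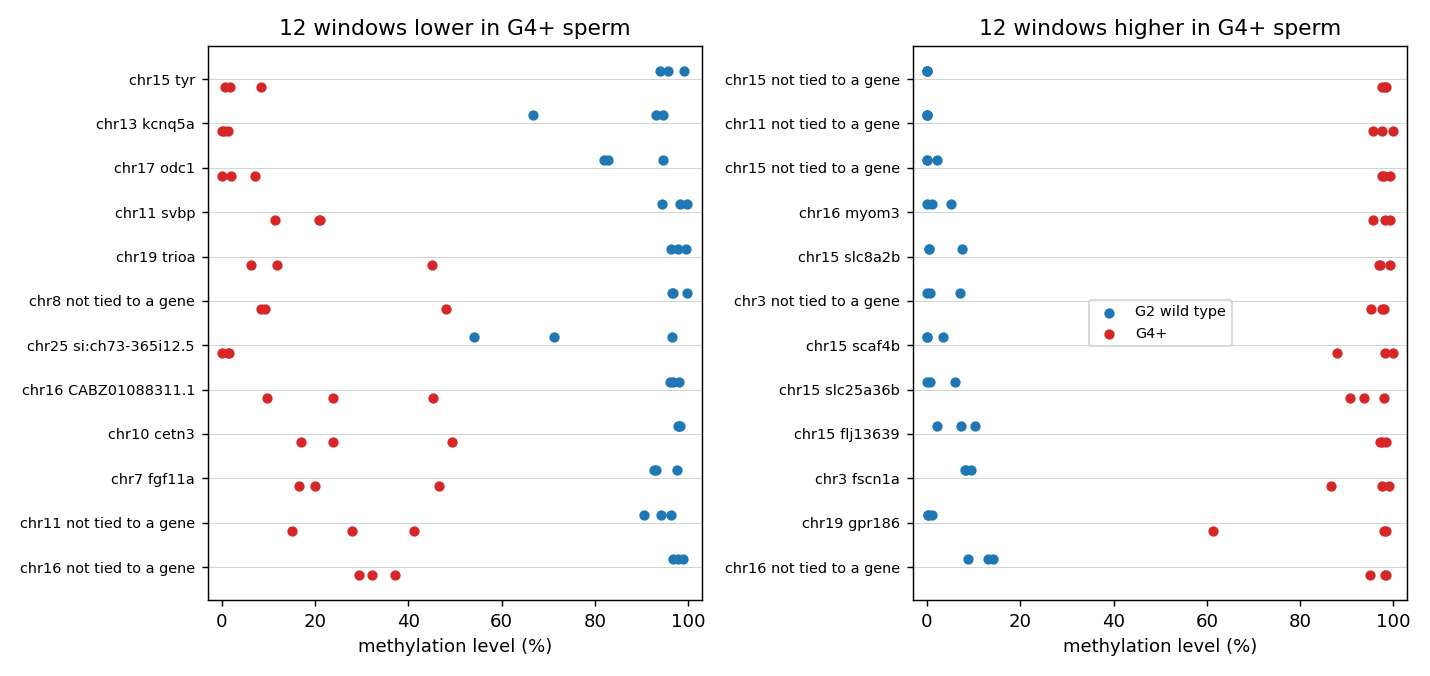
Methylation level (percent, horizontal axis) of the 12 windows with the largest loss (left) and the 12 with the largest gain (right) in G4+ sperm, with 1 point per male for G2 wild type and G4+ and rows named by chromosome and gene. At each window the 3 G4+ males lie on 1 side of the 3 G2 wild-type males, and the G4+ males are more scattered among the losses.

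Called windows were unevenly spread over the genome. Chromosome 16 held 48 of the 368 lower windows (13.0%) with 4.51% of the windows tested, and 28 of the 258 higher ones. Chromosome 11 held 30 lower windows and chromosome 20 another 30. Higher windows were most frequent on chromosome 15, with 35 of 24325 tested (14.4 per 10000), and on chromosome 3, with 36 of 28984 (12.4 per 10000). Chromosome 21 had 2 in each direction out of 23928 tested. In segments of 5 Mb on a fixed grid, 107 of 282 held no called window, and 9 segments with 10 or more held 129 of the 626 (20.6%) with 3.30% of the windows tested. Of these 9 segments, 4 were on chromosome 16, from 30 to 40 Mb and from 45 to 55 Mb.

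The segment from 40 to 45 Mb of chromosome 15 held 23 called windows among 2160 tested (106 per 10000), of which 17 were higher and 6 lower. Of the 17, 9 were under 20% in G2 wild-type sperm, and 7 of these reached 80% or more in G4+ sperm. Their median level was 7.41%, 11.1% and 9.79% in G2 wild-type males 1 to 3, and 98.1%, 97.1% and 97.0% in G4+ males. In G4* males it was 97.7%, 97.8% and 97.4%. The 3 G2 *dnmt1* m/m males stood apart from each other, with medians of 39.1%, 48.9% and 5.27%. The median over all windows of the segment was 97.4% in G2 wild-type and 97.1% in G4+ sperm.

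When called windows within 1 kb of each other were joined, 569 regions were left, of which 517 were single windows and none held both directions. When joined within 1000 kb they made up 249 regions, of which 63 held both directions.

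**Figure D3:**
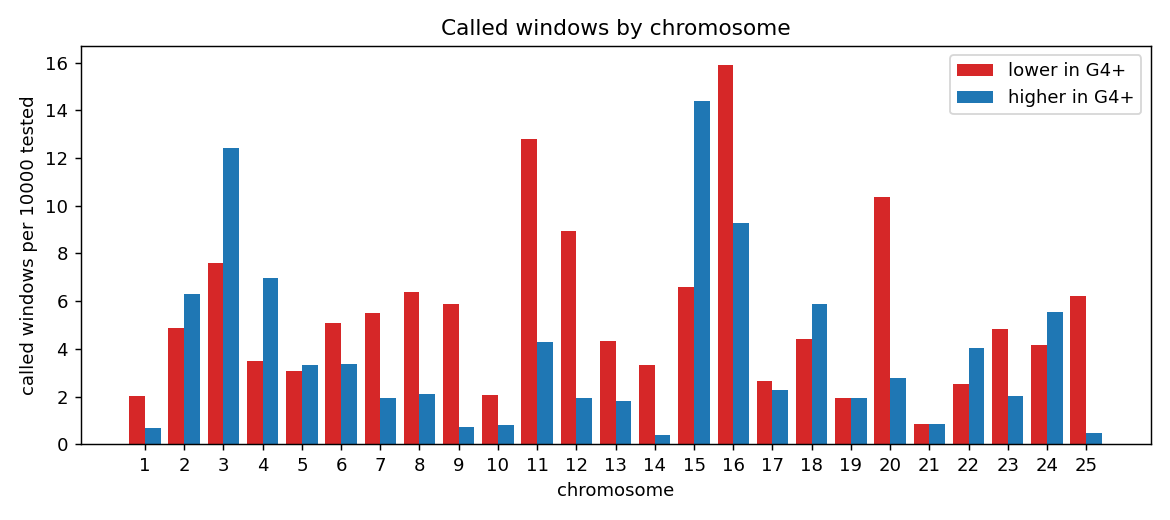
Called windows per 10000 windows tested (vertical axis) on each of the chromosomes (horizontal axis), with separate bars for windows lower and higher in G4+ sperm. Chromosome 16 has the tallest bar for losses at 15.9 and chromosome 15 that for gains at 14.4.

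Missing values also differed around called windows. A CpG was counted here when it had a value in all 3 males of 1 group and in none of the other, which can come from coverage or from a sequence variant, since the authors removed both. There were 309956 such CpGs valued only in G4+ sperm and 139302 valued only in G2 wild-type sperm. Within 10 kb on either side, the median was 232 per 10000 listed CpGs for lower windows and 264 for higher windows, as compared to 113 for all tested windows. It was 833 per 10000 over the windows of chromosome 15 from 40 to 45 Mb. Around the named gains of chromosome 15 the count was 1244 to 1375 per 10000. Around the other named gains it was 207 to 1297, and around the named losses 61.3 to 816. The window itself held at least 1 such CpG in 32.6% of lower, 38.8% of higher and 18.5% of all windows. When all windows with such a CpG were left out, 205 lower and 142 higher windows were called among 545483. The part of sequence variants in the remaining calls was not tested.

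Next, the other sperm groups were examined at the called windows. The comparisons of these groups share males with the present one, so that their levels are given side by side and without a test. At the 368 lower windows, the median over windows of the group mean was 97.5% in G2 wild-type, 57.4% in G2 *dnmt1* m/m, 58.0% in G4+ and 70.6% in G4* sperm. Over all windows the G2 *dnmt1* m/m median was 69.8%, so that mutant sperm was lower than elsewhere at these windows. The G4+ mean lay below all 3 mutant males in 101 of 351 windows with a value, within their range in 169 and above them in 81. Over all tested windows, the G4+ mean was at or below the highest mutant male in 2.89%. The lower windows were picked for a low G4+ level, so that this contrast follows in part from the choice of windows.

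At the 258 higher windows, G4+ sperm was not near the mutant level, but these windows were picked for a G4+ level above that of wild-type sperm. The median was 32.8% in G2 *dnmt1* m/m sperm, 50.2% in G2 wild-type, 96.2% in G4+ and 93.7% in G4* sperm. The G4+ mean exceeded all 3 mutant males in 241 of 244 windows with a value. This was also the rule over all tested windows, where the G4+ mean was at or below the highest mutant male in 2.89%. Mutant sperm was itself low at the 101 windows under 20% in G2 wild-type sperm, with a median of 1.76% over 96 windows with a value.

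G4* sperm was nearer to G4+ than to G2 wild-type sperm at most of the called windows. Its mean was nearer to that of G4+ in 242 of 360 lower windows and in 216 of 258 higher windows. All 3 G4* males lay on the G4+ side of all 3 G2 wild-type males in 222 of 360 and 213 of 258. The share of all tested windows with G4* separated in this way was not counted. For G4+ that share was 9.72% with G4+ lower and 4.56% with G4+ higher. The called windows were picked with the same G2 wild-type males, so that these counts follow in part from the choice. The G4* mean was within 10 points of the G2 wild-type mean in 70 of the lower and 23 of the higher windows. The levels thus also include windows at which 1 group of G4 males had the wild-type level and the other had not.

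**Figure D4:**
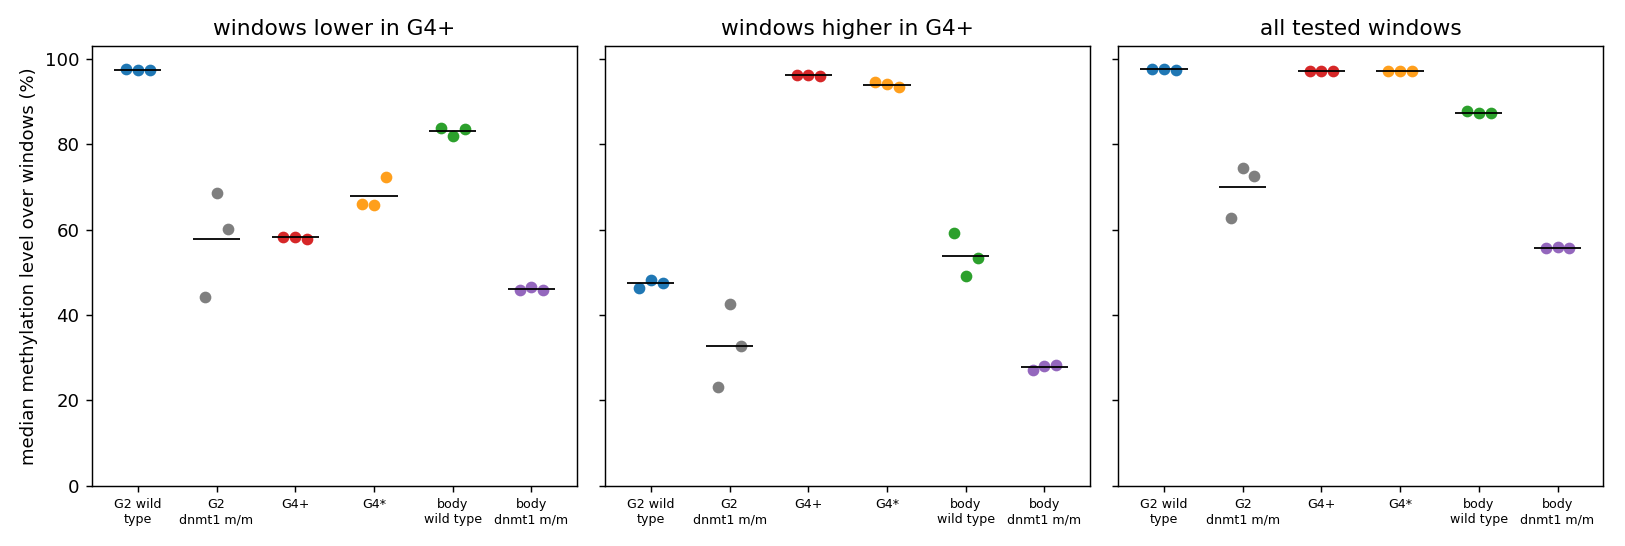
Median methylation level (percent, vertical axis) over the windows lower in G4+ sperm, the windows higher in G4+ sperm and all tested windows, with 1 point per fish and a line at the mean of the 3 fish of a group, for 4 sperm groups and 2 whole-body groups. The whole-body groups are larvae, wild type or *dnmt1* m/m. The G4+ males sit near 58% at the lower windows and near 96% at the higher windows, whereas all G2 wild-type and G4 males sit near 97% over all windows.

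Sorted by the level in mutant sperm, the median window of G4+ sperm was within 1 point of the wild-type level in each class. At the 103070 windows where G2 *dnmt1* m/m sperm was between 40% and 60%, the median was 54.9% in mutant, 97.0% in G2 wild-type and 96.5% in G4+ sperm. At the 411150 windows between 60% and 80% it was 70.8%, 97.6% and 97.3%. Called windows were most frequent where mutant sperm was between 20% and 40%, with 0.461% lower and 0.496% higher of 11279 windows. In that class wild-type sperm was itself intermediate, with a median of 71.3% in G2 wild-type and 71.1% in G4+ sperm. The wild-type and mutant levels were not separated here. Calls were least frequent where mutant sperm was at 80% or more, with 0.0177% lower and 0.00416% higher of 96115.

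Of the 626 windows, 367 were tied to a gene within 5 kb, and 304 genes were named in this way. Genes with several called windows are described next, picked with their levels already known. Most called windows were at *lypd6b*, encoding a Ly6/PLAUR domain protein, with 9 lower windows within chr9:23348001-23368000, not all of which adjoined. The mean over these windows was 98.0%, 97.4% and 97.5% in G2 wild-type males and 52.3%, 50.5% and 50.9% in G4+ males (adjusted p between 0.00949 and 0.0207). The G4* males were at 98.1%, 97.0% and 96.7%, the wild-type level.

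The G4* males were also at the wild-type level at *napga*, a gamma-SNAP gene of vesicle fusion, with 6 lower windows at chr24:949001-958000. G2 wild-type males were at 96.7%, 97.1% and 96.8%, G4+ males at 58.8%, 55.3% and 57.6%, and G4* males at 97.8%, 96.9% and 96.5%. At the 4 lower windows of *thsd7ab* (chr16:46965001-46969000), which encodes a thrombospondin type 1 domain protein, the G4* males had in contrast followed the G4+ males. The levels there were 97.0%, 98.4% and 97.9% in G2 wild-type, 55.7%, 52.2% and 53.5% in G4+ and 57.0%, 58.9% and 57.5% in G4* males. *BEGAIN*, *rptor* and *sult2st3* had 3 lower windows each. Examples among the many genes with 2 lower windows were *nr2f1b*, a nuclear receptor gene, *jag2b*, a Notch ligand gene, *mbnl1*, a splicing regulator gene, and *cetn3*.

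Among gains, the forkhead transcription factor gene *foxp1b* had 2 higher windows at chr6:43606001-43608000 and 1 lower window further along. At the higher windows, G2 wild-type males were at 0.930%, 1.62% and 0.955% and G4+ males at 48.7%, 49.4% and 54.0% (adjusted p between 0.00949 and 0.0104). The mean was 0.542% in G2 *dnmt1* m/m and 0.490% in G4* sperm, so that G4+ males were the only sperm group above 2% here. At the lower window of *foxp1b*, chr6:43679001-43680000, G2 wild-type males were at 99.4%, 96.7% and 98.7% and G4+ males at 60.9%, 49.5% and 60.4% (adjusted p = 0.0152), with the G4* mean at 97.6%. At 3 windows of *syt1a* (chr4:21593001-21597000), the gene of the synaptic calcium sensor synaptotagmin 1, the wild-type males were the intermediate ones, with 61.2%, 62.3% and 58.1%. G4+ males were at 97.3%, 97.9% and 98.6% and G4* males at 98.3%, 99.2% and 97.0%.

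**Figure D5:**
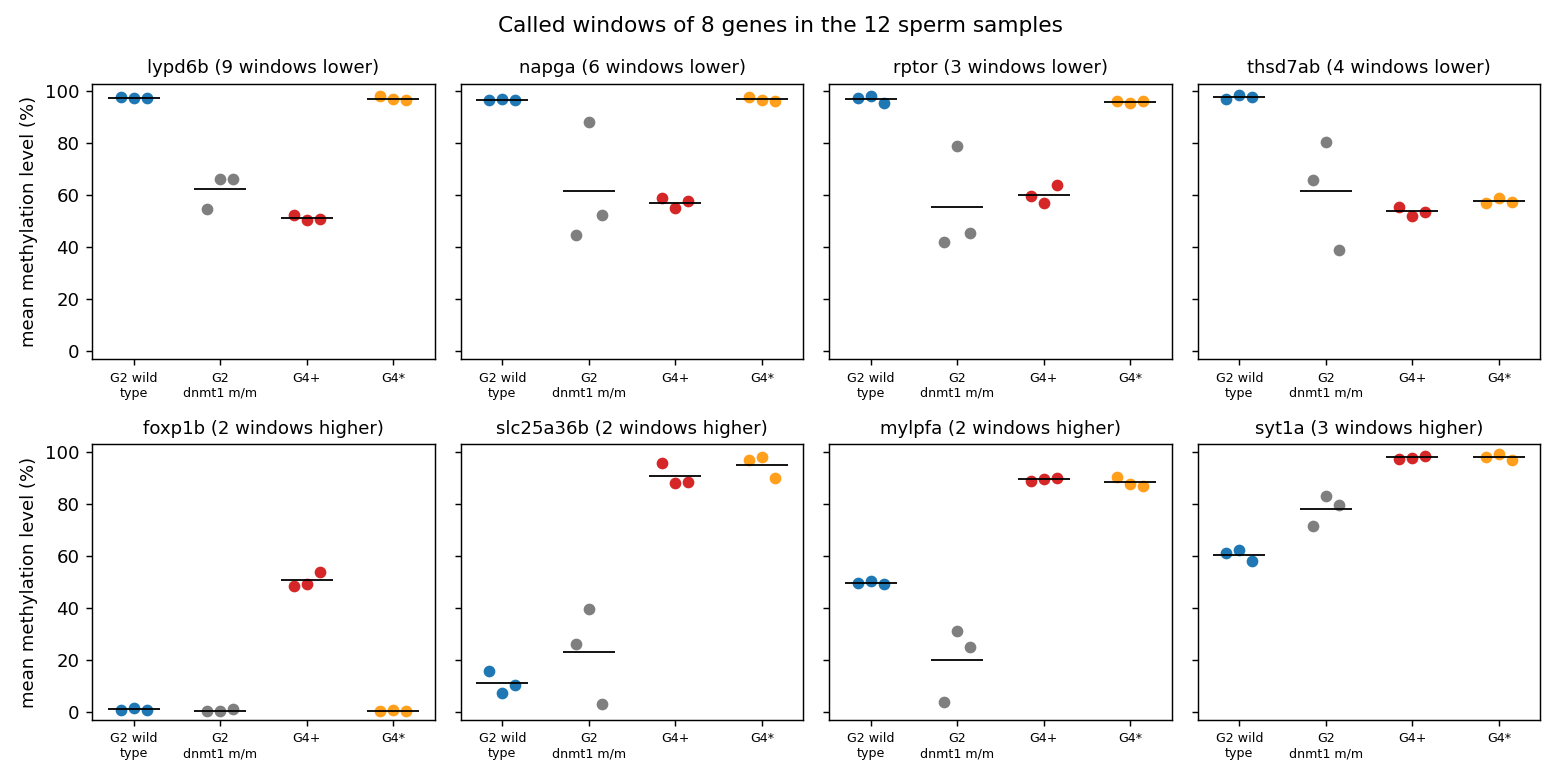
Mean methylation level (percent, vertical axis) over the called windows in 1 direction of 8 genes in G2 wild-type, G2 *dnmt1* m/m, G4+ and G4* sperm, with 1 point per male and a line at the group mean. G4* males are at the wild-type level at *lypd6b*, *napga*, *rptor* and *foxp1b*, and at the G4+ level at *thsd7ab*, *slc25a36b*, *mylpfa* and *syt1a*.

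Finally, gene lists were examined. Of 33 genes of T cell development and larval haematopoiesis, 27 had a tested window tied to them by the interval annotation. Of their 759 windows, 4 were lower and 0 higher in G4+ sperm by limma, that is 0.527% called against 0.0935% over all windows. The unadjusted p was under 0.05 in 66 of the 759 (8.70%), of which 16 were higher, as compared to 9.08% of all windows. The median difference was -0.44 points against -0.32 points. The 4 lay at 2 genes, of which *rptor* encodes the mTORC1 subunit Raptor and *runx3* encodes a Runt transcription factor of T cell development. Both were singled out by the study in these same G4 males, so that their place in the list is not independent. The other 25 genes, among them *rag1*, *lck* and *ikzf1*, had no called window. Among these 25 genes the largest difference was at *cbfb*, whose product is the partner of Runx proteins, with 88.5% against 47.8% (adjusted p = 0.371).

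At *rptor*, the 3 called windows followed each other at chr6:17437001-17440000. In the first of these, G2 wild-type males 1 to 3 had 99.1%, 98.6% and 97.2%, and G4+ males 53.1%, 53.3% and 62.6% (difference -42.0 points, adjusted p = 0.0112). The adjusted p was 0.0137 and 0.0465 in the others. Over the 3 windows the G4* males were at 96.1%, 95.7% and 96.2%, and the G2 *dnmt1* m/m males at 41.9%, 79.1% and 45.3%. The G4+ males thus lay within the range of the mutant males, and the G4* males near the wild-type level. They were 3 of 147 windows tied to *rptor*, whose mean was 96.5% in G2 wild-type and 95.1% in G4+ sperm. With any male left out, the first window kept a difference of -45.1 to -40.3 points but was called only without G4+ male 3 (adjusted p = 0.0444), and the others were not called (adjusted p between 0.0554 and 0.192).

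At *runx3*, 1 of 79 windows was called, at chr13:44953001-44954000, for which the interval annotation gives a distance of 2296 bp to the gene. G2 wild-type males had 97.7%, 94.8% and 97.7%, and G4+ males 63.5%, 62.7% and 69.7% (difference -31.4 points, adjusted p = 0.0242). The G4* males had 96.9%, 97.7% and 98.6%, so that this window, too, differed from the wild-type level in G4+ and not in G4* sperm by the values of all 3 males, although the difference between G4+ and G4* was not tested here. The G2 *dnmt1* m/m males were at 15.9%, 67.0% and 22.5%. The difference was -33.6 to -30.1 points with any male left out, and in none of these fits was it called (adjusted p between 0.0639 and 0.142).

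None of the 506 windows tied to 27 of 30 genes of DNA methylation and chromatin was called (0 in either direction by limma, with 41 at an unadjusted p under 0.05, that is 8.10% against 9.08% of all windows). A window at the de novo methyltransferase gene *dnmt3bb.1* passed the FDR of 5%, with 99.0% against 80.9% (adjusted p = 0.0388), but missed the minimum of 20 points. The 9 windows of *dnmt1* had a mean of 71.2% in G2 wild-type and 71.7% in G4+ sperm. Of 258 windows at germline and meiosis genes, 1 was lower (0.388% called against 0.0935% of all windows), and 21 (8.14%) had an unadjusted p under 0.05. The called window lay within *spata4*, a gene of spermatogenesis (chr14:36057001-36058000). G2 wild-type males had 96.5%, 97.7% and 96.6% there, and G4+ males 48.6%, 48.4% and 72.8% (adjusted p = 0.0304). Of 160 windows at somatic marker genes, 2 were higher (1.25% called against 0.0935% of all windows), and 17 (10.6%) had an unadjusted p under 0.05. Both called windows adjoined within 1 gene, *mylpfa*, the fast skeletal muscle myosin light chain gene (chr3:32681001-32683000). The mean over both was 49.7%, 50.3% and 49.4% in G2 wild-type males and 88.9%, 89.9% and 89.9% in G4+ males, with G4* males at 90.6%, 87.8% and 86.8%. Only 1 *hox* gene had windows tied to it, and none of its 12 windows was called by limma, with 1 at an unadjusted p under 0.05.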

How the data were processed

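Whole genome bisulfite sequencing was carried out by the authors on sperm DNA of single males, with 2 libraries per fish (TruSeq and EpiGnome) that were merged, so that each fish is 1 replicate. Reads were mapped to danRer10 (GRCz10) with methylCtools and BWA 0.7.12 after trimming with cutadapt 1.9.1, and duplicates were removed with Picard 1.136. The deposited values are fractions of reads methylated per CpG, given here as percent, and the authors had removed values at low coverage or at sequence variants. Their deposited columns of fold changes, p-values and differences between groups were not used, and interval positions with gene distances served for annotation alone. The 2 sperm tables listed the same 23946533 positions.

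Windows were means of CpGs valued in all 6 males, tested with limma 3.58.1 in R 4.3.3 on the logit with an offset of 0.01, with a call needing both an FDR below 5% and a difference of 20 points. Only these 6 males entered the fit, which was tested on simulated data. For other fish, a window needed 3 of the same CpGs. Named windows were the 12 largest called losses and gains, counted once within 10 kb, and called windows of the gene lists. Members and lists were chosen with earlier results of these data known. Fish are numbered as in the deposited columns. Alternatives were other offsets, window sizes, CpG minimums, thresholds and summaries, a fit of all 12 sperm samples, a block for the replicate number, and omission of each male. No pair of males had the same level in more than 1.69% of windows.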

Additional observations from a re-analysis of the deposited data

How the results depend on the processing

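The 368 lower and 258 higher windows became 32 and 35 with an offset of 0.001, and 622 and 484 with 0.05. They became 182 and 149 at an FDR under 2%, and 557 and 395 with no minimum difference. Without windows that hold a CpG missing in one whole group they became 205 and 142. Only 281766 windows had at least 10 CpGs, and among these 227 lower and 190 higher windows were called. Of the 626 windows, 269 had at least 10 CpGs, and all 269 were still called. Leaving out 1 male gave 0 to 232 lower and 5 to 148 higher windows. Of the 626 windows, 616 kept their direction when the median of the CpGs was used, but only 295 were still called. In the fit of all 12 sperm samples, 431 of 431 with a value kept their direction, and 343 were called. The other alternatives on the 1-kb grid could not change a direction. They used the same window means, or left out 1 male of groups that did not overlap. Same-numbered males did not deviate together (correlations of 0.00942, -0.00141 and -0.00335), so that the numbers are not a pairing. With the replicate number as a block, 0 lower and 2 higher windows were called. The genome-wide difference was 0 for the median CpG. It was -0.426 over CpGs valued in all 12 sperm samples and -0.399 over each male's own CpGs. The share of windows spanning 20 points among G2 wild-type males was 0.478% with at least 10 CpGs. With the median of the CpGs, none of the 31 windows named by rule changed direction, and 16 were called. Nor did the 19 with a value change direction in the fit of all 12 sperm samples, where 18 were called. Depth per CpG is unknown, which limits every level.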
